A study of Mus musculus with 6 samples.

Results

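The comparison described here set immortalized Kdm5a-null mouse embryonic fibroblasts carrying KDM5A-H483A against the same kind of cells carrying an empty vector. Its differences came from 4 of the 6 arrays of the series, 2 for each group. The fit across all genes, given below, took its spread from all 6. Genes were chosen by the differences within a replicate number, the first KDM5A-H483A array minus the first empty vector array and the second minus the second. A gene was kept where both differences had the same sign and both were at least 0.5 on the log2 scale. This held for 33 of 18194 genes, 19 higher and 14 lower with KDM5A-H483A. Because the values of this contrast chose the genes, their levels and differences are a description and no test was run on them.

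All groups, the controls included, were fibroblasts of a mixed background strain without Kdm5a, kept subconfluent in medium with serum and detached by trypsin before lysis. The remaining 2 arrays of the series carried wild-type KDM5A in the same cells, and their values are given beside those of KDM5A-H483A. The sources used here do not give the vector, its promoter or whether a culture was a pool or a clone. Arrays of a group are labelled biological replicates, without a statement on how the cultures were separated or whether a shared number marks a shared day. Each p-value therefore sets a difference against the spread between these arrays, and how far it holds for other cultures is not known.

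KDM5A is a demethylase of the Jumonji family that removes methyl groups from lysine 4 of histone H3, a mark of active promoters. Its catalytic centre holds an iron atom through histidine residues, and H483A replaces a histidine of that centre with alanine. KDM5A was first known as a partner of the retinoblastoma protein, and it is recruited to promoters of cell cycle, differentiation and mitochondrial genes. Mouse embryonic fibroblasts are connective tissue cells that secrete and remodel extracellular matrix in culture.

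The values are log2 expression values made with RMA, which corrects background, normalizes the arrays to a common distribution and combines the probes of a set into 1 value. A probe set is a group of short probes against a stretch of a transcript, and its brightness depends on the probes as well as on the RNA. Levels are therefore not used to rank genes by their amount of RNA, and a percentile or a level under 6 describes only how weak a signal was on the array. Where a gene had several probe sets, the brightest over the 6 arrays stood for it, passing over sets marked _x_at, whose probes may bind several genes, where the gene had another. A difference of 1 on the log2 scale is a doubling or halving. In bulk RNA, fewer cells of a type and less RNA per cell cannot be told apart.

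Markers of fibroblasts were present in all 4 arrays, with Vim at 12.77 to 13.39 and Col1a2 at 12.53 to 13.29, while Fap stood at 3.13 to 3.39. Of 78 measured markers of epithelial, endothelial, blood, muscle, adipocyte, chondrocyte and neural cells, 60 stood below 6 in all 4 arrays. Weak signals were common over all genes too, of which only 42.6% had a mean over the 6 arrays of at least 6. The brightest of the neural and glial markers reached 8.67 in the second empty vector array. The second KDM5A-H483A array stood farther from its control than the first did. Differences had an SD over genes of 0.20 for replicate 1 and 0.36 for replicate 2. The 2 KDM5A-H483A arrays lay at least 1 log2 unit apart in 436 genes and the empty vector arrays in 27. The 16 fibroblast identity genes had a median difference of 0.06 in replicate 1 and -0.46 in replicate 2, with Col1a1 at 12.33 and 12.11 with empty vector and 12.39 and 11.05 with KDM5A-H483A. The part of this shift between arrays in the differences below was not tested.

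The windows before the start sites of 4 of the genes are shown because Npnt and Moxd1 had the largest smaller-of-both difference in each direction and because Rgs4 and Rgs5, both lower, are neighbours on a chromosome. Each is the 250 bases before the annotated start in RefSeq, build GRCm38.p6, written in the direction of the gene. The Npnt window is chr3:132950292-132950541 on the minus strand, and the Moxd1 window is chr10:24223267-24223516 on the plus strand. In both, capitals mark CCGCCC on either strand, the short sequence that the DNA-binding ARID domain of KDM5A is known to prefer and that is also the core of the GC box bound by SP1.
Npnt: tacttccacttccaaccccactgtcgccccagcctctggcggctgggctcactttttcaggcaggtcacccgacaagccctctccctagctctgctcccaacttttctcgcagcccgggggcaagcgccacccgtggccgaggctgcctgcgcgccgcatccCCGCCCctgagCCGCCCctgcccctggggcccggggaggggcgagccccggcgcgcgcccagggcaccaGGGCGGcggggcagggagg
Moxd1: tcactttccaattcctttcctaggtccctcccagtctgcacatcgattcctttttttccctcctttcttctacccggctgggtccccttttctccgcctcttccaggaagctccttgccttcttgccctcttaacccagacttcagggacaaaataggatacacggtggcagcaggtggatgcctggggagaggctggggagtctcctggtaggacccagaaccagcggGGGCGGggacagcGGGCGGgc
The Rgs4 window is chr1:169747643-169747892 on the minus strand and the Rgs5 window chr1:169655251-169655500 on the plus strand. In these, capitals mark CCAAT on either strand, the core of the box bound by the factor NF-Y.
Rgs4: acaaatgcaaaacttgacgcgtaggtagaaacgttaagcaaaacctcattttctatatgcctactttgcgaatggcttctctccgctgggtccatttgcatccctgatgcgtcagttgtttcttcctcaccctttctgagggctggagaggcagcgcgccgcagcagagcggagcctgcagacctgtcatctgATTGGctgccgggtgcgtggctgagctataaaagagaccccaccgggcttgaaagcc
Rgs5: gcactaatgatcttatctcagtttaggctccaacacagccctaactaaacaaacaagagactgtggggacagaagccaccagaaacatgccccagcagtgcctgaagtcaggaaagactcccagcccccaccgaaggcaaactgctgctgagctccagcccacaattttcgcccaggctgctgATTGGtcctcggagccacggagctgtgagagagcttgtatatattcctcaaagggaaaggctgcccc

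The Npnt window shown held 3 matches to CCGCCC, a second annotated Npnt window (chr3:132949815-132950064) held 0 and the Moxd1 window 2, while those of Rgs4 and Rgs5 held 0. The marked motif differed between the pairs of windows, and other matches were left unmarked. The Moxd1 window also held 1 CCAAT, as those of Rgs4 and Rgs5 did, and the Rgs4 window held 1 TATAAA. The promoter table matched 28 of the 33 genes with 33 windows, some genes having several start sites. Of these windows, 12 (36.4%) held CCGCCC, against 32.7% of all 32851 windows of the same length. The share was 30% for windows of genes higher with KDM5A-H483A, 6 of 20, and 46.2% for those of genes lower, 6 of 13. CCAAT was found in 10 of the 33 windows (30.3%), against 33.8% of all, and TATAAA, the TATA box, in 4 (12.1%) against 12.4%. CACGTG, the E-box bound by MYC and MAX, was in 1 window (3.03%), of Ampd3, against 6.02% of all. All 4 motifs were searched on both strands. CCGCCC and CCAAT can overlap at their ends, and a match describes letters in the window only.

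**Figure D1:**
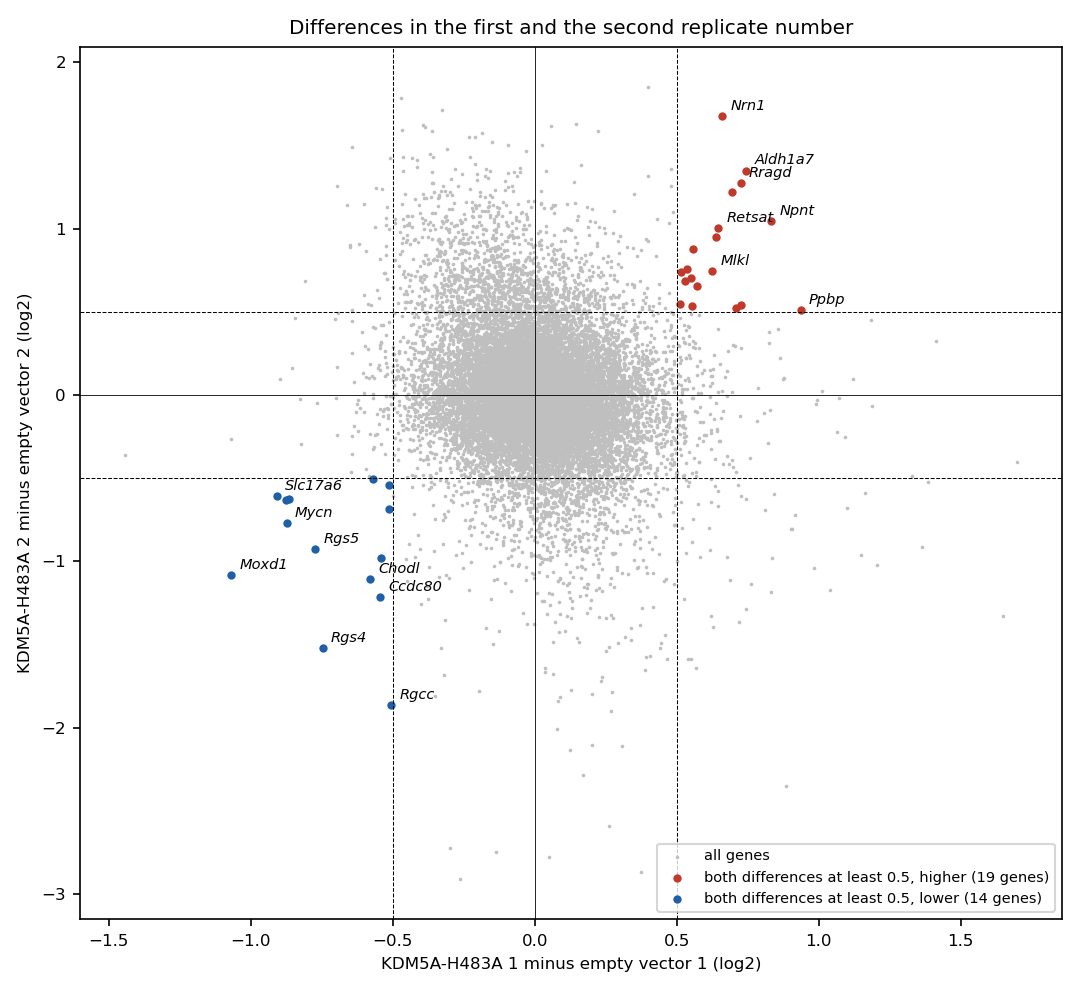
Each grey point is a gene, with the log2 difference between KDM5A-H483A and empty vector in replicate 1 on the horizontal axis and in replicate 2 on the vertical axis. Dashed lines mark 0.5 in each direction, and the 19 red and 14 blue genes lie beyond both lines with the same sign. The cloud is wider along the vertical axis, with an SD of 0.36 against 0.20.

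In replicate 1 alone, 230 genes were higher by at least 0.5 and 125 lower. In replicate 2 alone there were 1449 and 1030. The 19 genes higher in both were 8.26% of those of replicate 1 and 1.31% of those of replicate 2, and the 14 genes lower in both were 11.2% and 1.36%. Another 79 genes differed by at least 0.5 in opposite directions, 49 of them higher in replicate 1 and lower in replicate 2. Over all genes, the 19 higher genes are 0.104% and the 14 lower genes 0.0769% of those measured. The median over all genes was 0.00 in replicate 1 and -0.01 in replicate 2.

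Across all genes, the fit with limma called 0 of 18194 genes between KDM5A-H483A and empty vector after Benjamini-Hochberg adjustment, 0% in either direction, and the lowest adjusted p was 0.999. Before adjustment, p was under 0.05 in 176 higher genes (0.967%) and 125 lower genes (0.687%). The median gene had a 95% confidence interval reaching 0.37 to either side of its mean difference. Leaving out the first array of KDM5A-H483A brought that count from 301 to 2079, and leaving out the second control array brought it to 113. After adjustment limma called 0 genes in both. Such a fit leaves 1 array in a group, which is assumed to vary like the other groups.

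Both KDM5A-H483A arrays stood above both empty vector arrays in 17 of the 19 higher genes, and below them in 11 of the 14 lower genes. Over all genes, 13.6% were separated upwards and 14.6% downwards. The 5 genes whose groups overlapped were Cobll1, Islr, Tenm3, Thbs4 and Ccdc80. In 24 of the 33 genes the difference was larger in replicate 2. Over all genes, too, differences were wider in replicate 2, with an SD of 0.36 against 0.20 in replicate 1. Moxd1 alone had both differences beyond 1. The median of the mean difference was 0.69 for the higher genes and -0.79 for the lower genes.

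**Figure D2:**
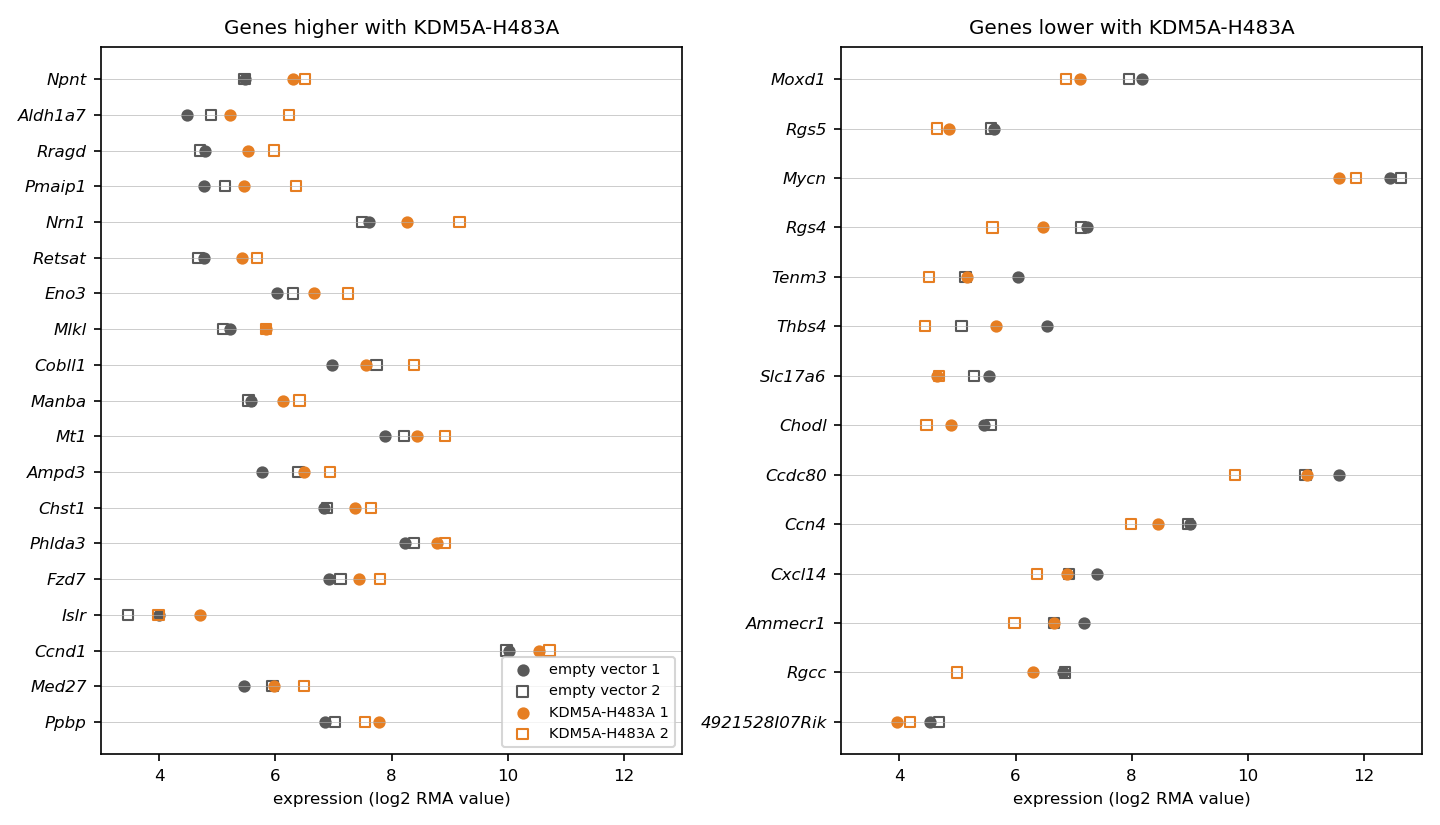
Each row is a gene, and the horizontal axis is its log2 RMA value in the brightest probe set. Filled circles are the first and open squares the second arrays, in grey for empty vector and in orange for KDM5A-H483A. Orange marks lie right of both grey marks in 17 of the 19 higher genes and left of both in 11 of the 14 lower genes.

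Among genes of the matrix and of cell adhesion, Npnt was higher with KDM5A-H483A, and Thbs4, Ccdc80, Ccn4, Tenm3 and Chodl were lower. Npnt encodes nephronectin, a basement membrane ligand of the integrin formed by the alpha8 and beta1 chains. It stood at 5.48 and 5.47 with empty vector and at 6.31 and 6.51 with KDM5A-H483A. The differences were 0.83 and 1.05, a mean of 0.94 ± 0.15 (SD, n = 2), or 1.92-fold. Here and below, such an SD is over the 2 differences within replicate numbers. The numbers are not shown to pair the samples, so it is not the spread between arrays of a group. Both KDM5A-H483A arrays lay well above the empty vector arrays, which differed from each other by 0.01. Itga8, the gene of the alpha8 chain, differed by -0.37 and -0.02. With wild-type KDM5A, Npnt stood at 6.61 and 6.70.

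Ccn4, which encodes the matricellular protein WISP1, a target of WNT signalling, stood at 9.00 and 8.97 with empty vector and at 8.45 and 7.99 with KDM5A-H483A. The groups were apart and the mean difference was -0.76 ± 0.31 (SD, n = 2). Of the other CCN genes, Ccn5 differed by -0.35 and -0.74, while Ccn1 differed by -0.09 and 1.33, Ccn2 by -0.25 and 0.63 and Ccn3 by 0.78 and -0.16. So of the 4 relatives only Ccn5 had both differences below 0, as Ccn4 did. Ccdc80, the gene of a secreted matrix-associated protein, stood at 11.56 and 10.99 against 11.02 and 9.78. Its second empty vector array lay below its first KDM5A-H483A array, so the groups overlapped by a small margin, and the differences were -0.54 and -1.22.

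Thbs4 encodes thrombospondin-4, a matrix glycoprotein of tendon and muscle. It stood at 6.53 and 5.07 with empty vector and at 5.67 and 4.45 with KDM5A-H483A. Here the empty vector arrays differed by 1.46, more than either paired difference (-0.86 and -0.62), and the groups overlapped. The relatives Thbs1, Thbs2 and Thbs3 differed by -0.38 and -0.02, 0.24 and -0.42, and -0.03 and -0.13. Tenm3, which encodes a teneurin, a transmembrane adhesion protein, stood at 6.04 and 5.14 against 5.17 and 4.51 and overlapped as well, with differences of -0.87 and -0.63. Chodl, the gene of a membrane lectin, stood at 5.46 and 5.58 against 4.88 and 4.47, with the groups apart and a mean difference of -0.84 ± 0.37 (SD, n = 2). Islr, which encodes a secreted leucine-rich repeat protein of mesenchymal cells, was on the higher side, at 3.995 and 3.46 against 4.70 and 3.99, differences of 0.71 and 0.52. Its signal was weak, at the 40.3rd percentile of all probe sets, and its groups overlapped.

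The fixed list of 45 measured collagens and interstitial matrix genes held 0 genes with both differences of at least 0.5. Its median was 0.08 in replicate 1 and -0.54 in replicate 2. Differences had opposite signs in 27 of the 45 genes (60%), against 54.5% of all genes. Both differences were below 0 in 15 (33.3%) and above 0 in 3 (6.67%), against 23.3% and 22.1% of all genes. Npnt was the only one of 26 basement membrane, nephronectin and Fraser genes to meet the rule. The medians of that list were -0.01 and -0.07.

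Both regulators of G protein signalling among the 33 genes, Rgs4 and Rgs5, were lower with KDM5A-H483A. Rgs4 and Rgs5 encode proteins that speed up the GTPase step of G protein alpha subunits and so end signals of their receptors. Rgs4 stood at 7.23 and 7.12 with empty vector and at 6.48 and 5.60 with KDM5A-H483A, a mean difference of -1.13 ± 0.55 (SD, n = 2), or 2.19-fold. Rgs5 stood at 5.62 and 5.57 against 4.85 and 4.65, a mean difference of -0.85 ± 0.11 (SD, n = 2), or 1.80-fold. In both genes the groups were apart. The 2 genes lie next to each other on chromosome 1, with 0 annotated protein-coding genes between them in RefSeq. Of their relatives, Rgs2 differed by 0.22 and -0.42, Rgs3 by 0.06 and -0.09 and Rgs16 by 0.32 and 0.07. Rgs4 and Rgs5 were the 2 genes of 29 measured in the list of G protein signalling and receptors that met the rule, and the list's medians were 0.12 and -0.13.

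Of the 32 measured chemokine and cytokine genes, Ppbp was higher and Cxcl14 lower. Ppbp encodes the platelet basic protein, a CXC chemokine that attracts neutrophils, and stood at 6.85 and 7.03 with empty vector and at 7.78 and 7.54 with KDM5A-H483A. The groups were apart, and with 0.94 it had the largest difference of the higher genes in replicate 1, followed by 0.51 in replicate 2. Pf4, a related platelet chemokine gene, differed by -0.31 and -0.11. Cxcl14, the gene of a chemokine of epithelia and fibroblasts, stood at 7.41 and 6.92 against 6.89 and 6.38, with the groups apart by a small margin and differences of -0.51 and -0.54. Cxcl12, another fibroblast chemokine gene, differed by 0.41 and -0.93. The medians of the list were -0.02 and -0.20.

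Nrn1 and Fzd7 encode membrane proteins of growth and signalling. Nrn1, the gene of neuritin, a lipid-anchored protein that promotes neurite growth, stood at 7.61 and 7.49 with empty vector and at 8.27 and 9.17 with KDM5A-H483A. Its difference was 0.66 (1.58-fold) in replicate 1 and 1.68 (3.20-fold) in replicate 2, so the groups were apart but the size varied. Fzd7, a receptor gene of the WNT pathway, stood at 6.92 and 7.12 against 7.44 and 7.80, with the groups apart and differences of 0.53 and 0.68. Its relatives Fzd1 and Fzd2 differed by 0.05 and -0.15, and by 0.56 and -0.74. Fzd7 was the only one of 31 measured WNT pathway genes to meet the rule. Slc17a6, a vesicular glutamate transporter gene, was lower, at 5.55 and 5.29 against 4.64 and 4.68, with differences of -0.91 and -0.61 and the groups apart. It was the only one of 40 listed transporter and channel genes to meet the rule. In that list both differences were below 0 in 15 genes (37.5%) and above 0 in 6 (15%), against 23.3% and 22.1% of all genes.

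Of the genes of cell cycle control, Ccnd1 was higher and Mycn and Rgcc were lower, and the p53 targets that met the rule were higher. Ccnd1 encodes cyclin D1, which activates the kinases that phosphorylate the retinoblastoma protein. It stood at 10.02 and 9.98 with empty vector and at 10.54 and 10.72 with KDM5A-H483A, a mean difference of 0.63 ± 0.16 (SD, n = 2). The groups were apart. The other D cyclin genes differed by 0.15 and 0.20 (Ccnd2) and by 0.48 and -0.08 (Ccnd3). Ccnd1 was the only gene of 15 CDK inhibitors and cyclins to meet the rule, and 0 of 13 genes of the RB and E2F family, 0 of 30 DNA replication genes and 0 of 32 mitosis genes did.

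Mycn, a MYC family transcription factor gene, stood at 12.44 and 12.63 with empty vector and at 11.57 and 11.86 with KDM5A-H483A, a mean difference of -0.82 ± 0.07 (SD, n = 2). These values come from a single bright probe set (1425923_at), and the 2 remaining Mycn probe sets, described with the other probe sets, stood between 3.54 and 4.10 in the 4 arrays. Myc differed by 0.03 and 0.33. Rgcc, a regulator of cell cycle kinases, stood at 6.81 and 6.85 against 6.30 and 4.99. Its difference was -0.50 in replicate 1 and -1.86 in replicate 2, so it met the rule by a small margin in the first and had the largest difference of all 33 genes in the second.

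Pmaip1 encodes NOXA, a BH3-only protein that promotes apoptosis and is induced by p53. It stood at 4.77 and 5.14 with empty vector and at 5.46 and 6.36 with KDM5A-H483A, differences of 0.70 and 1.22, with the groups apart and a mean difference of 0.96 ± 0.37 (SD, n = 2). Phlda3, a p53-induced repressor of AKT, stood at 8.23 and 8.39 against 8.78 and 8.92, with nearly equal differences of 0.55 and 0.53. These were the 2 genes of 26 measured p53 targets that met the rule. Across the list, 13 genes had both differences above 0 and 0 had both below 0, against 22.1% and 23.3% of all genes, and the medians were 0.21 and 0.17. Perp, a p53-induced membrane protein gene, was just short of the rule at 0.48 and 1.36. Cdkn1a, the gene of the CDK inhibitor p21, differed by 0.35 and 0.54, and Mdm2, the ubiquitin ligase gene that restrains p53, by 0.30 and 0.96. Btg2 and Plk2 had differences of opposite sign, 0.62 and -1.33 and -0.46 and 0.56.

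Mlkl encodes the pseudokinase that permeabilises the plasma membrane in necroptosis. It stood at 5.22 and 5.09 with empty vector and at 5.84 in both KDM5A-H483A arrays, differences of 0.63 and 0.75. Ripk3, the gene of the kinase that activates MLKL, differed by 0.04 and -0.23. Mlkl was the only one of 23 measured genes of necroptosis and death receptors to meet the rule.

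Several genes of metabolism were higher. Aldh1a7, an aldehyde dehydrogenase gene, stood at 4.48 and 4.89 with empty vector and at 5.22 and 6.24 with KDM5A-H483A, differences of 0.74 and 1.35. Its groups were apart. Aldh1a1, a close relative of similar sequence, stood at 3.21 and 3.49 against 3.57 and 4.33, and whether its RNA binds the Aldh1a7 probes was not tested. Retsat, the gene of retinol saturase, stood at 4.78 and 4.68 against 5.43 and 5.68, with the groups apart and a mean difference of 0.83 ± 0.25 (SD, n = 2). It was the only one of 27 listed retinoid and steroid genes to meet the rule.

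Eno3, the muscle form of the glycolytic enzyme enolase, stood at 6.02 and 6.31 with empty vector and at 6.66 and 7.26 with KDM5A-H483A. Eno2, the neuronal form, differed by 0.48 and -0.41. Ampd3, which encodes an AMP deaminase, stood at 5.76 and 6.40 against 6.49 and 6.94, differences of 0.73 and 0.54. In Ampd3 the first KDM5A-H483A array was above the second empty vector array by a small margin. The list of 31 measured glycolysis and hypoxia genes does not hold Eno3, and 0 of its genes met the rule. Both differences were above 0 in 13 (41.9%) and below 0 in 2 (6.45%), against 22.1% and 23.3% of all genes. The medians of that list were 0.09 and 0.24.

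Lysosomal enzymes and the lysosomal nutrient sensor were represented by Manba and Rragd. Manba, the gene of a lysosomal mannosidase, stood at 5.57 and 5.54 with empty vector and at 6.13 and 6.42 with KDM5A-H483A, a mean difference of 0.72 ± 0.23 (SD, n = 2). Rragd encodes a Rag GTPase that brings the growth kinase complex mTORC1 to the lysosome, and stood at 4.80 and 4.70 against 5.52 and 5.97, a mean difference of 1.00 ± 0.39 (SD, n = 2). In both genes the groups were apart. The relatives Rragc and Rraga differed by 0.14 and 0.34, and by -0.24 and 0.38. The list of 39 measured lysosome and autophagy genes holds Manba, which met the rule, but not Rragd. Both differences were above 0 in 21 of its genes (53.8%) and below 0 in 2 (5.13%), against 22.1% and 23.3% of all genes, and the medians were 0.12 and 0.24. Ctsb, the cathepsin B gene, differed by 0.42 and 0.34, Glb1, a galactosidase gene, by 0.26 and 0.84, and Lamp1, a lysosomal membrane protein gene, by 0.19 and 0.23. The 2 genes below 0 in both were Ctss, a cathepsin gene, at -0.12 and -0.03, and Tfeb, a transcription factor gene for lysosomal genes, at -0.02 and -0.01.

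Mt1 encodes metallothionein 1, which binds zinc and copper. It stood at 7.89 and 8.22 with empty vector and at 8.44 and 8.92 with KDM5A-H483A, differences of 0.55 and 0.70, with the groups apart. Mt2, its neighbouring relative with a similar sequence, stood at 7.29 and 7.72 against 7.93 and 8.11, differences of 0.65 and 0.39. Chst1, a sulfotransferase gene that acts on keratan sulfate, stood at 6.84 and 6.89 against 7.38 and 7.65, differences of 0.54 and 0.76. Moxd1, a monooxygenase gene related to dopamine beta-hydroxylase, stood at 8.17 and 7.95 against 7.11 and 6.87. The differences of Moxd1 were -1.07 and -1.08, a mean of -1.08 ± 0.01 (SD, n = 2), or 2.11-fold. That SD depends on which arrays share a number. The arrays within a group had SDs of 0.15 (empty vector) and 0.17 (KDM5A-H483A). The groups of Moxd1 lay farther apart than the arrays within either group. Dbh, the dopamine beta-hydroxylase gene, differed by -0.24 and 0.16.

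The remaining genes have roles apart from these. Cobll1, the gene of an actin-binding protein of the cordon-bleu family, stood at 6.98 and 7.74 with empty vector and at 7.55 and 8.39 with KDM5A-H483A, and its groups overlapped. Its differences were 0.57 and 0.65. Med27, a Mediator subunit gene, stood at 5.47 and 5.95 against 5.98 and 6.49, differences of 0.51 and 0.55. Ammecr1, an X-linked gene, stood at 7.17 and 6.67 against 6.66 and 5.98, differences of -0.51 and -0.69. In Med27 and Ammecr1 the first KDM5A-H483A array and the second empty vector array were nearly level. The predicted gene 4921528I07Rik stood at 4.53 and 4.68 against 3.96 and 4.18, differences of -0.57 and -0.50, a weak signal at the 45.1st percentile of all probe sets.

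The threshold of 0.5 left genes close by on either side. Just inside it on the higher side were Ppbp (smaller difference 0.51), Med27 (0.51) and Ccnd1 (0.52), and just outside were Rab3b (0.49), Tinagl1 (0.49) and Gda (0.48). Just inside it on the lower side were 4921528I07Rik (-0.50), Rgcc (-0.50) and Ammecr1 (-0.51), and just outside were Isy1 (-0.50 after rounding), Bnc2 (-0.48) and Slc2a3 (-0.46).

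Of the 33 genes, 16 had 1 probe set and 17 had several, with 26 further probe sets between them. Both differences of a further probe set had the direction of the gene in 16 of the 26. Over all genes, both differences were above 0 in 22.1% and below 0 in 23.3%. The rule itself was met by 2 of the 26, beside 0.0843% of all probe sets higher and 0.0776% lower. These 2 were a second Npnt probe set (1452106_at), at 5.02 and 5.26 against 6.24 and 6.44, and a second Cxcl14 probe set (1418457_at), at 5.45 and 4.65 against 4.40 and 4.04. All further probe sets went the same way in 9 of the 17 genes.

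Ccnd1 had 3 probe sets with close values. The further pair (1417419_at and 1448698_at) differed by 0.41 and 0.86, and by 0.41 and 0.83. Ccn4, Tenm3 and Ccdc80 each had a further probe set below empty vector in both replicates, with differences of -0.43 and -0.99, -0.45 and -1.01, and -0.50 and -0.42. A second Rgs4 probe set (1416287_at) differed by -0.37 and -0.53, and 1448285_at by -0.02 and -0.11. The last stood under 3.1 in the 4 arrays, as did 1 further probe set each of Rgs5 (1420942_s_at), Ammecr1 (1450546_at) and Rragd (1431164_at). Rgcc had a further probe set at -0.19 and -0.32, Cobll1 at 0.12 and 0.21, and Mt1 at 0.23 and 0.13.

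In 8 genes at least 1 further probe set did not go the same way. Those of Mycn differed by 0.21 and -0.01 (1417155_at) and by 0.15 and -0.20 (1425922_a_at). For Rgs5 they differed by 0.08 and -0.16 (1420940_x_at), -0.08 and -0.78 (1420941_at) and 0.18 and -0.02 (1420942_s_at). The second Retsat probe set (1424716_at) stood at 4.45 and 4.64 against 4.69 and 4.52, differences of 0.24 and -0.12. Fzd7 had one at -0.10 and -0.11 (1450043_at), Slc17a6 one at 0.15 and -0.40 (1418610_at) and Ammecr1 one at 0.21 and 0.03 (1450546_at). The 2 further Rragd probe sets differed by 0.14 and 0.15 and by 0.02 and -0.07, at levels under 3.3. Of the 3 remaining Npnt probe sets, 1426561_a_at differed by 0.45 and 1.14, 1426560_a_at by 0.05 and 0.09, and 1421429_a_at by -0.05 and 0.10. In these genes other than Npnt, 0 further probe sets met the rule. Taking the mean of all probe sets of a gene made the mean difference over 1.5 times smaller in Npnt (0.94 became 0.61), Rragd (1.00 became 0.37), Retsat (0.83 became 0.44), Cobll1 (0.61 became 0.39), Mt1 (0.63 became 0.40) and Fzd7 (0.61 became 0.25) among the higher genes. Among the lower genes it did so in Mycn (-0.82 became -0.25), Rgs5 (-0.85 became -0.31), Rgs4 (-1.13 became -0.55), Slc17a6 (-0.76 became -0.44), Ammecr1 (-0.60 became -0.24) and Rgcc (-1.18 became -0.72).

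**Figure D3:**
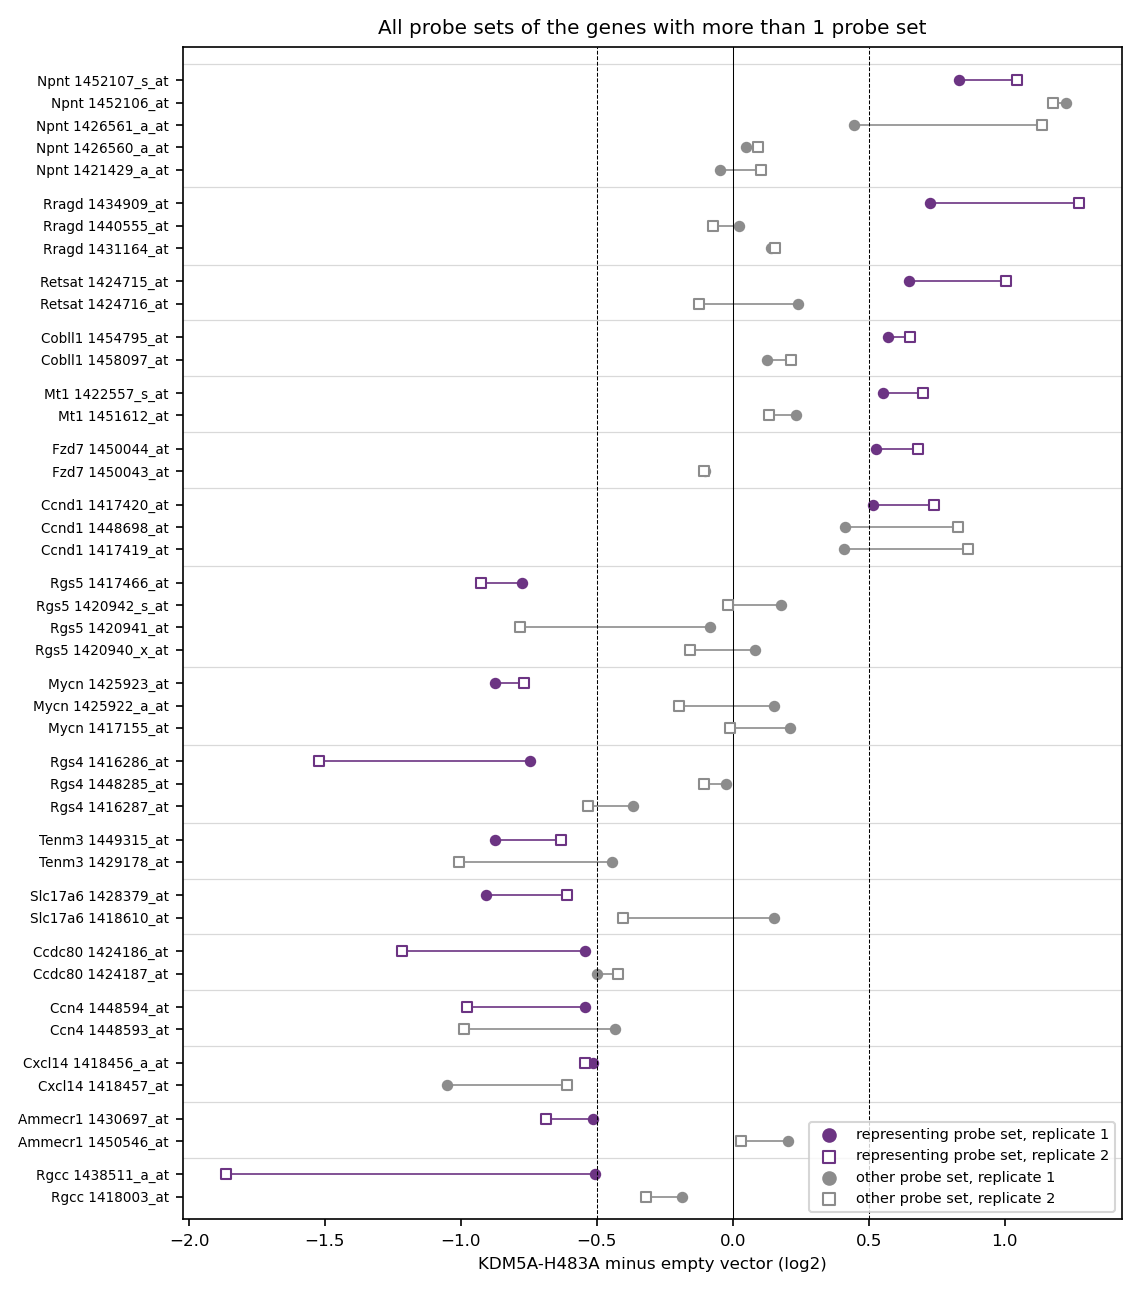
Each row is a probe set of a gene with several, and the horizontal axis is the log2 difference between KDM5A-H483A and empty vector. Circles are replicate 1 and squares replicate 2, in purple for the brightest probe set and in grey for the others. Of the 26 grey rows, 16 lie on the side of the purple row in both replicates and 2 pass the dashed line at 0.5 in both.

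Taking every probe set on its own, 73 of 45101 met the rule, 38 higher (0.0843%) and 35 lower (0.0776%). Of these, 35 belonged to the 33 genes and 27 to 26 other genes whose representing probe set did not meet it, 14 of them higher and 12 lower. For Crispld2 the probe set that met it (1437056_x_at) was the brighter one and had been passed over for its suffix. It differed by -0.62 and -0.72, and the representing one by -0.12 and -0.15. The representing probe set had both differences in the same direction in 18 of the 26. Of all genes, 22.1% were above 0 in both replicates and 23.3% below. Id4, an inhibitor of helix-loop-helix transcription factors, met the rule in 2 of its 3 probe sets, with differences of 0.97 and 0.66, and of 0.71 and 0.82, while the brightest differed by 0.19 and 0.27. The empty vector and KDM5A-H483A arrays overlapped in all 3. Niban1, a stress-induced gene, differed by 1.17 and 0.80 in one probe set and by 0.52 and 0.34 in the brightest. Ctsb differed by 0.58 and 0.68 in one and was above 0 in both replicates in all 5 of its probe sets. These genes, which lie outside the rule for naming, were chosen after their values were seen.

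Adam12, a metalloprotease gene, differed by -0.77 and -0.59 in one probe set and by -0.35 and -0.54 in the brightest, and Igf1, the gene of insulin-like growth factor 1, by -0.53 and -0.63 and by -0.25 and -0.34. By contrast, Tead1, a transcription factor gene of the Hippo pathway, differed by -0.78 and -0.54 in one probe set and by -0.02 and 0.06 in the brightest. Ube3a, a ubiquitin ligase gene, differed by -0.77 and -0.78 in one and by -0.49 and 0.49 in the brightest. A further 10 probe sets had no gene name in the annotation used, 2 higher and 8 lower, and 1 was shared by several genes. The unnamed 1417185_at stood at 9.50 and 9.72 with empty vector and at 10.89 and 10.34 with KDM5A-H483A, and 1444199_at at 8.70 and 6.74 against 7.02 and 5.57.

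Comparisons with empty vector share their control arrays between wild-type KDM5A and KDM5A-H483A, so their values are set side by side only. For Npnt the differences were 1.14 and 1.23 with wild-type KDM5A, beside 0.83 and 1.05 with KDM5A-H483A. For Mycn they were -0.86 and -0.81 beside -0.87 and -0.77, and for Chodl -0.78 and -0.81 beside -0.58 and -1.11. For Rgcc they were -0.47 and -1.78 beside -0.50 and -1.86, close to the values with KDM5A-H483A in both replicates. Rgs4 differed by -0.94 and -0.80 beside -0.75 and -1.52, and Ccnd1 by 0.49 and 0.46 beside 0.52 and 0.74.

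Among other genes, Eno3, Mlkl, Retsat, Manba, Moxd1 and Rgs5 had smaller differences with wild-type KDM5A in both replicates. Eno3 differed by 0.06 and 0.19 with wild-type KDM5A, beside 0.64 and 0.95 with KDM5A-H483A. Mlkl differed by 0.23 in both replicates beside 0.63 and 0.75, and Retsat by 0.22 and 0.26 beside 0.65 and 1.00. Manba differed by 0.33 and 0.38 beside 0.56 and 0.88, Moxd1 by -0.61 and -0.87 beside -1.07 and -1.08, and Rgs5 by -0.24 and -0.59 beside -0.77 and -0.93. Phlda3 was the only gene of the 33 whose differences with wild-type KDM5A had opposite signs, at 0.79 and -0.08. Pmaip1 differed by 0.20 and 1.19 with wild-type KDM5A beside 0.70 and 1.22, and Med27 by 0.81 and 0.29 beside 0.51 and 0.55, so in both the replicates with wild-type KDM5A lay far apart. Nrn1 differed by 0.99 and 1.08 beside 0.66 and 1.68, and Aldh1a7 by 0.55 and 1.48 beside 0.74 and 1.35. Since KDM5A-H483A values chose these genes, the difference between both forms of KDM5A was not tested on them.

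**Figure D4:**
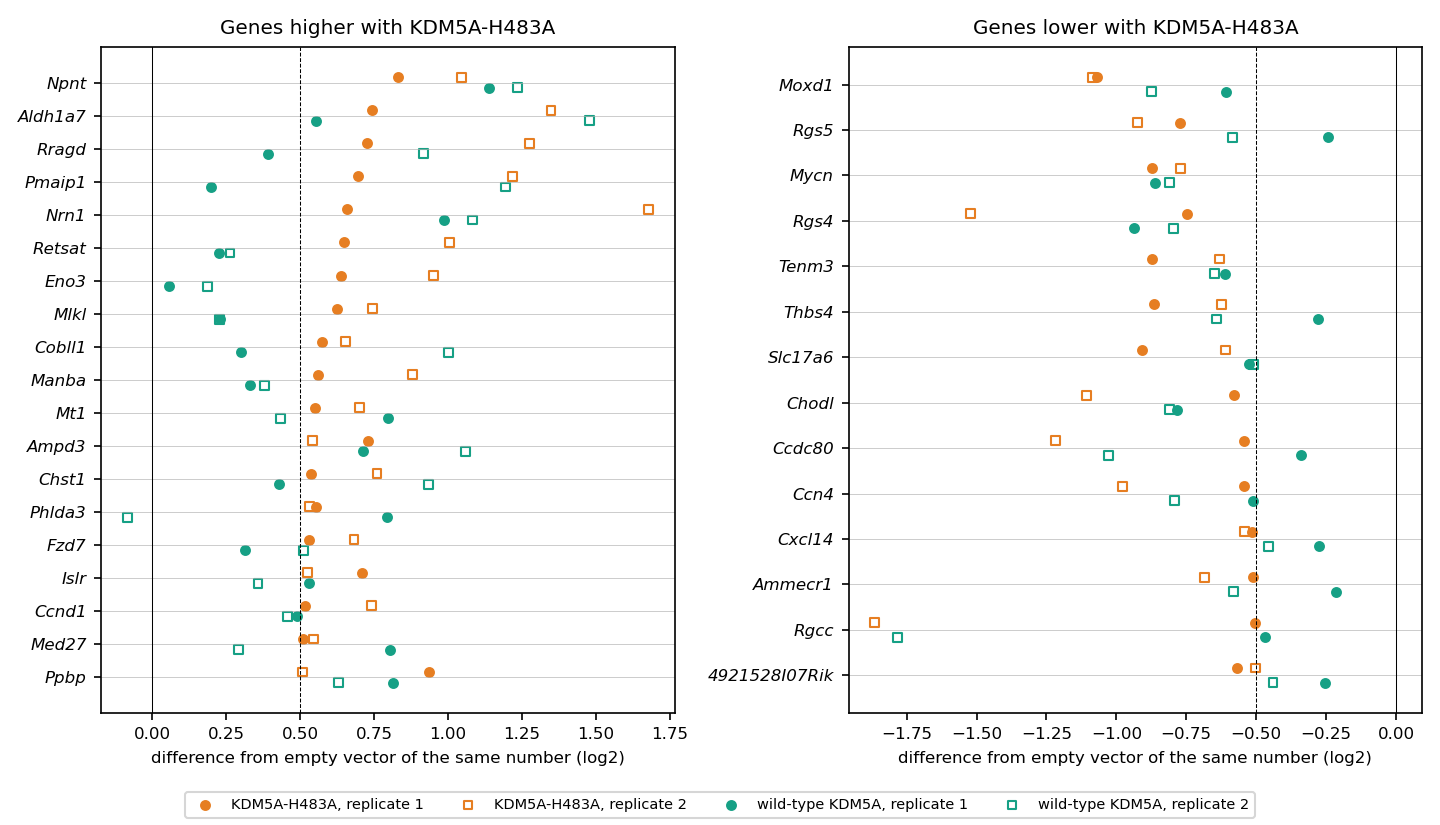
Each row is a gene, and the horizontal axis is the log2 difference from the empty vector array of the same number. Orange marks are KDM5A-H483A and green marks wild-type KDM5A, circles replicate 1 and squares replicate 2, and the dashed line is the 0.5 that orange marks had to pass. Green marks lie near 0 for Eno3 (0.06 and 0.19) and beyond the orange marks for Npnt (1.14 and 1.23).

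Genes of the KDM5 family did not meet the rule. The brightest Kdm5a probe set (1452360_a_at) differed by 0.22 and 0.06 and 1437105_at by -0.15 and -1.01. The sources used here do not place these probes on the deleted exons or the vector, so they check neither the deletion nor the reintroduction. Kdm5b differed by -0.08 and 0.51, Kdm5c by 0.20 and -0.30 and Kdm5d by -0.11 and -0.88. The brightest probe set of Kdm5a was above 0 and that of Kdm5d below 0 in both replicates, and Kdm5b and Kdm5c had differences of opposite sign. Of the 33 genes of H3K4 methyltransferases and other demethylases and of the 21 Sin3, HDAC and NuRD partners, 0 met the rule.

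The 47 gene lists held 15 of the 33 genes, in 12 lists. For most lists the replicates gave medians of different size or sign. Ribosome biogenesis genes had medians of -0.21 and 0.68 in replicates 1 and 2, mitochondrial ribosomal proteins -0.19 and 0.58 and oxidative phosphorylation genes -0.15 and 0.41. In these lists 86.1%, 79.5% and 78.9% of genes had differences of opposite sign, against 54.5% of all genes. Sterol and fatty acid synthesis genes had medians of 0.09 and -0.35, and interferon response genes 0.25 and -0.15. None of these lists held a gene that met the rule. Actomyosin genes had medians of 0.10 and 0.12. Of these genes, 8 of 23 (34.8%) were above 0 in both replicates and 0 below in both, against 22.1% and 23.3% of all genes. Among chemokine and cytokine genes, 10 of 32 (31.25%) were below 0 in both replicates and 3 (9.4%) above. Among H3K4 methyltransferases and other demethylases, 10 of 33 (30.3%) were below and 2 (6.06%) above. Over all genes, 23.3% were below and 22.1% above. Most genes of these 2 lists had differences of opposite sign, 59.4% and 63.6%, against 54.5% of all genes.

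**Figure D5:**
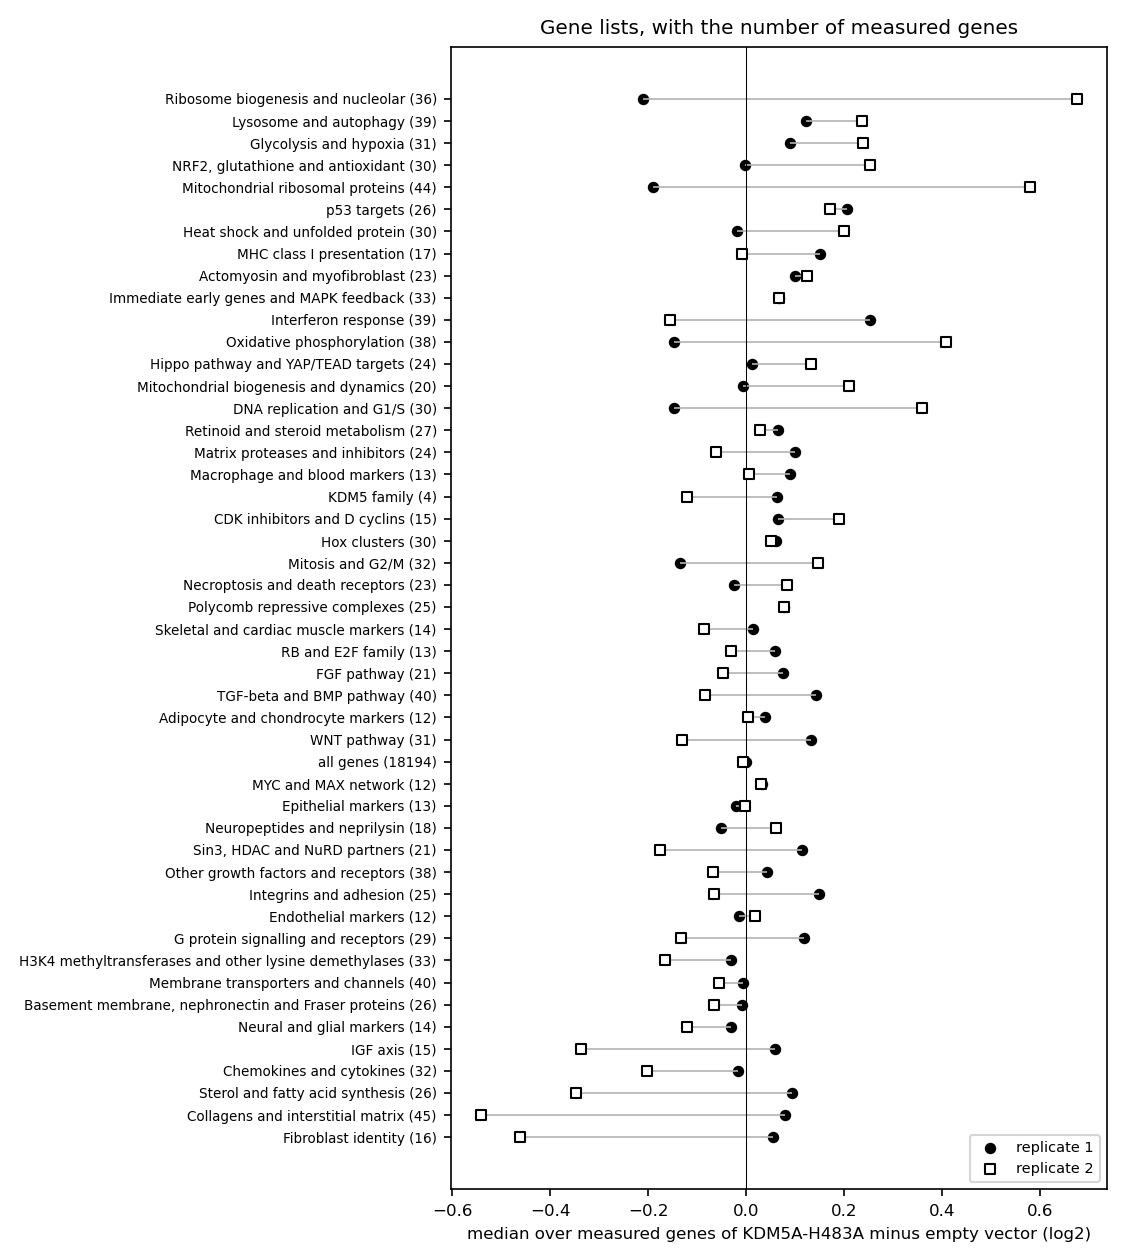
Each row is a gene list with its number of measured genes, and the horizontal axis is the median log2 difference between KDM5A-H483A and empty vector over those genes. Filled circles are replicate 1 and open squares replicate 2, with all genes as a row for reference at 0.00 and -0.01. The marks lie far apart for ribosome biogenesis (-0.21 and 0.68) and close together for p53 targets (0.21 and 0.17).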

How the data were processed

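The authors deposited log2 values for Affymetrix mouse M430 2.0 arrays. The submitters' processing notes name RMA, with no software version in the sources used here. No scaling was added, since array medians lay between 4.55 and 4.60. The number of arrays limits the precision.

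Of 45101 probe sets, the platform annotation gave 34958 a single gene, 932 several and 9211 none. Symbols were updated through Entrez IDs to RefSeq, which matched 34754. Each gene was represented by its brightest probe set not ending in _x_at where it had another, which left 18194 genes. Differences were taken within replicate numbers. The fit across all genes used limma 3.58.1 in R 4.3.3, lmFit with a mean for each of the 3 groups over 6 arrays and eBayes, two-sided, adjusted by Benjamini-Hochberg with a threshold of 0.05. It was tested on simulated data.

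The named genes were up to 15 in each direction with the largest smaller difference, passing over clone and predicted-gene symbols. Only 14 genes met the rule on the lower side. Also named were the KDM5 family, members of the lists that met the rule, Npnt, and 3 genes on each side of the threshold. Islr, relatives of these genes and other listed genes were added after their values were seen. Promoter windows are from RefSeq, GRCm38.p6, 250 bases before each start. Alternatives were the replicate block, the arrays fitted, the choice of probe set, a minimum mean of 6, centring, trend and robust eBayes, no pairing, and leaving out each array. The genes and the 47 lists (1256 genes, 1182 measured) were chosen with earlier results of these data known.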

Additional observations from a re-analysis of the deposited data

How the results depend on the processing

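Limma called 0 genes or probe sets under each alternative. An unadjusted p under 0.05 was found in 908 of 45101 probe sets taken singly and in 57 of 7757 genes with a mean of at least 6. The other alternatives that left no array out had 267 to 502 such genes of 18194. With 1 array left out there were 113 to 2079, from fits that assume the lone array of a group to vary like the other groups. With the replicate number as a block it called 0 genes, with 502 at an unadjusted p under 0.05 against 301 without the block, and 267 with the block on the 4 arrays compared, an alternative chosen after seeing the data. The numbers are not shown to pair the samples: deviations from the group means had a correlation across genes of 0.02 between empty vector and KDM5A-H483A, 0.31 between empty vector and wild-type KDM5A, and 0.53 between both KDM5A groups. The count of 33 genes became 73 probe sets of 45101 with every probe set on its own. It became 20 among genes with a mean of at least 6, which tests 7757 genes. It became 166 without pairing, where arrays had to be apart and means to differ by 0.5, and 28 of the 33 were among these. These 28 are the genes whose arrays were apart. The rule already gives each of the 33 a mean difference of at least 0.5, so this overlap is not a separate check. With only 1 replicate number left, the count was 355 or 2479, an alternative chosen after seeing the data. The mean of all probe sets gave 25 genes, 20 of them among the 33, and centring gave 32. Under that mean, the mean difference moved by more than the SD of its 2 differences in 12 of the 33 genes.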
